A study of Mus musculus with 8 samples.

Results

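Toll-like receptors are proteins with which macrophages sense parts of microbes, and 10 of their genes were followed here in bone marrow-derived macrophages (BMDMs), the macrophages that grow in culture from bone marrow cells. The genes were chosen by name from the 50615 genes of the table and comprised 5 receptors of the cell surface (*Tlr1*, *Tlr2*, *Tlr4*, *Tlr5* and *Tlr6*) and 5 of endosomes (*Tlr3*, *Tlr7*, *Tlr8*, *Tlr9* and *Tlr13*). All 10 passed the filter on low counts. RNA was sequenced from BMDMs of C57BL/6 mice that carry floxed *Ncoa6* alleles (*Ncoa6* fl/fl). Mice that also express Cre from LysM, the lysozyme gene *Lyz2* of myeloid cells, gave the *Ncoa6*-KO BMDMs, and mice with the floxed alleles and no Cre gave the *Ncoa6*-sufficient BMDMs. Cells of both genotypes were grown for 6 days with the growth factor M-CSF at 20 ng/ml. They were then left in medium alone or stimulated, first with the bacterial lipid lipopolysaccharide (LPS, 100 ng/ml, 4 h) and then with crystals of monosodium urate (MSU, 200 µg/ml, 2 h). The libraries of a group, 2 in each of the 4, come from different mice, and whether the mice of a genotype gave cells to both conditions is not stated. The labels call the controls WT, but these carry the floxed alleles too. The age and sex of these mice are not given in the sources used here.

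The surface receptors bind lipids and proteins of microbes. TLR2 pairs with TLR1 or TLR6 to bind lipopeptides, TLR4 binds LPS together with MD-2 and is handed it by CD14, and TLR5 binds flagellin. The endosomal receptors bind nucleic acids after they have been carried there by UNC93B1 and cut by proteases. TLR3 binds double-stranded RNA, TLR7 and, in humans, TLR8 sense single-stranded RNA, and TLR9 senses unmethylated CpG DNA. TLR13, which mice have and humans lack, senses bacterial ribosomal RNA. Signals pass through the adaptor MyD88, except those of TLR3, which uses TRIF, and TLR4 uses both. NCOA6 is a nuclear coactivator, a protein that helps transcription factors to switch genes on.

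Libraries held between 25281955 and 33673552 counts. *Ncoa6* itself had 1515 and 1405 normalized counts (counts scaled to the mean library size after TMM normalization) in the *Ncoa6*-sufficient and 784 and 622 in the *Ncoa6*-KO libraries with medium alone. With LPS + MSU the values were 1297 and 1173 against 563 and 526, so the genotypes did not overlap under either condition. Per the paper, the floxed part of *Ncoa6* is an exon and not the whole gene, whereas these counts cover the whole gene. How much of the remaining counts came from other exons was not tested. All 8 macrophage markers were past the filter on low counts, and *Adgre1*, which encodes F4/80, had between 21095 and 85785 normalized counts per library. The summed macrophage markers were lower in *Ncoa6*-KO libraries, at 265898 to 306491 against 405657 to 470584 with medium alone and at 370997 to 394210 against 499722 to 557527 with LPS + MSU. *Lyz2*, the locus that carries Cre, made up the larger share of the difference, with 111993 and 127555 against 209893 and 272098 normalized counts with medium alone. With medium alone *Cd68*, *Mrc1* and *Mertk* overlapped between the genotypes, and *Adgre1*, *Csf1r*, *Itgam* and *Cd14* were lower in *Ncoa6*-KO libraries without overlap. With LPS + MSU *Cd68*, *Mrc1* and *Cd14* overlapped, and the remaining macrophage markers were lower without overlap. The 6 stromal markers summed to 140 and 346 normalized counts in the first *Ncoa6*-KO library of each condition, the lowest sums of their conditions. Markers of conventional dendritic cells summed to 24.1 to 32.5 normalized counts with medium alone. With LPS + MSU they summed to 269 and 199 in *Ncoa6*-sufficient against 152 and 185 in *Ncoa6*-KO libraries. Those of neutrophils and their precursors summed to 442 to 511 with medium alone and 753 to 991 with LPS + MSU. Markers of T and NK cells, mostly *Cd4*, were lower in *Ncoa6*-KO libraries without overlap. They summed to 110 and 75.7 against 73.7 and 30.7 with medium alone, and to 63.7 and 56.5 against 28.8 and 26.6 with LPS + MSU. The part of any of these in the results for the receptors was not tested. In these bulk samples fewer cells that express a receptor and less RNA of it per cell cannot be told apart.

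Promoters of receptors that moved in different ways are shown with the motifs of transcription factors that act in macrophages. RefSeq start sites on GRCm38.p6 were available for 8 of the 10 receptors, in 10 windows of 250 bases before to 50 bases after the start. The 250 bases before the start are printed 5′ to 3′ for *Tlr1*, lower in *Ncoa6*-KO BMDMs with LPS + MSU, for *Tlr3*, with the largest rise under LPS + MSU among the receptors, for *Tlr9*, with the largest knockout estimate below 0 among them, and for *Tlr13*, which fell under LPS + MSU. Capitals mark matches.

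Tlr1 (chr5:64933559-64933808, minus strand): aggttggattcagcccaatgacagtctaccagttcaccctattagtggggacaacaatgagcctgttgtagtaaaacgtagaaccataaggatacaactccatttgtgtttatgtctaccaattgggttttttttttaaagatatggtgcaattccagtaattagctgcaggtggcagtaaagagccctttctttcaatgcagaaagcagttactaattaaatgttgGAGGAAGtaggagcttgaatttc
Tlr3 (chr8:45410381-45410630, minus strand): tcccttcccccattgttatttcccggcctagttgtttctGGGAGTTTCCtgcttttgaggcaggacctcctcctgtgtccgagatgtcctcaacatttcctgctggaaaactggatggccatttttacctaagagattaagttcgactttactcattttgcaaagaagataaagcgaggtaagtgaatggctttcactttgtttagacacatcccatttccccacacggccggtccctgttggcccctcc
Tlr9 (chr9:106222348-106222597, plus strand): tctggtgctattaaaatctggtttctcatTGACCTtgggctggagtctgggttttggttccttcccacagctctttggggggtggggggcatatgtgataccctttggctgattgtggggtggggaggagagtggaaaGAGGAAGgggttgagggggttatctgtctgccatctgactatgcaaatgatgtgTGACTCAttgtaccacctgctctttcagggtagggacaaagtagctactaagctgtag
Tlr13 (chrX:106143025-106143274, plus strand): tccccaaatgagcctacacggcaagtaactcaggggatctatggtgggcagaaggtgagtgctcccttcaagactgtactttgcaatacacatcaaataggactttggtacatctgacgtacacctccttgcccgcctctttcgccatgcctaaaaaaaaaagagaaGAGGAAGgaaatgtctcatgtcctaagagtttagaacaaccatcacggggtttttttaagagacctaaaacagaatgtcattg

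Matches were sought on both strands for 6 motifs. The PU.1 core GAGGAAG, which stands in 13.6% of all 32851 RefSeq promoter windows of this length, matched in *Tlr1* from base -23, in *Tlr13* from base -83 and in *Tlr9* from base -112, and again from base 12 after the *Tlr9* start. The NF-κB core (GGGA and TTCC with any 2 bases between), held by 1.47% of windows, matched in *Tlr3* from base -211. *Tlr9* also held the AP-1 core TGANTCA from base -58, found in 7.81% of windows, and the nuclear receptor half-site AGGTCA in reverse from base -221, found in 16.3%. In the windows not printed, *Tlr6* held a pair of overlapping matches to the ISRE core (GAAA and GAAA with any 2 bases between), found in 3.44% of windows, from bases -116 and -110, and *Tlr2* and *Tlr5* each held 1 nuclear receptor half-site, from bases -15 and -171. The ETS-IRF composite element (GGAA and GAAA with any 2 bases between), in 2.72% of windows, matched in none of the receptors' windows, and the *Tlr8* window and the second windows of *Tlr1* and *Tlr6* matched none of the 6 motifs. A match gives only where these letters stand.

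With medium alone, the endosomal receptor *Tlr13* had the highest level of the 10 receptors in *Ncoa6*-sufficient BMDMs and the flagellin receptor *Tlr5* the lowest. Levels between genes are given as CPM (counts scaled to a fixed library size) per kilobase of exons. In *Ncoa6*-sufficient BMDMs *Tlr13* stood at 86.6 (84.3 and 88.8 in the 2 libraries), followed by *Tlr7* at 36.8, *Tlr2* at 31.4 and *Tlr8* at 26.4. *Tlr4* at 14.6, *Tlr1* at 11.7, *Tlr6* at 7.56, *Tlr3* at 4.89 and *Tlr9* at 3.63 came next, and *Tlr5* closed the order at 0.126. In that group no receptor's libraries overlapped with those of its neighbour in the order. *Tlr13* led in the unstimulated *Ncoa6*-KO BMDMs as well, at 95.5 (93.8 and 97.2). Neighbours in that group whose libraries overlapped were *Tlr7* at 34.9 with *Tlr8* at 25.3, *Tlr8* with *Tlr2* at 25.0, and *Tlr1* at 7.36 with *Tlr6* at 6.24.

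With LPS + MSU the order changed and the lipopeptide receptor *Tlr2* led in both genotypes. In *Ncoa6*-sufficient BMDMs *Tlr2* stood at a level of 173 (151 and 195), ahead of *Tlr7* at 117, *Tlr3* at 91.8, *Tlr1* at 59.7, *Tlr8* at 50.2 and *Tlr13* at 42.0. *Tlr6* followed at 28.1, and *Tlr4* at 15.9 and *Tlr9* at 14.9 had libraries that overlapped. In *Ncoa6*-KO BMDMs *Tlr2* stood at 237 (214 and 261), *Tlr7* at 101 and *Tlr3* at 73.8. *Tlr8* at 41.0, *Tlr13* at 39.3, *Tlr1* at 33.2 and *Tlr6* at 23.7 came next, of which *Tlr8* with *Tlr13*, *Tlr13* with *Tlr1*, and *Tlr1* with *Tlr6* overlapped between neighbours. The plot of levels by library shows how far *Tlr3* moved up and *Tlr13* down.

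**Figure D1:**
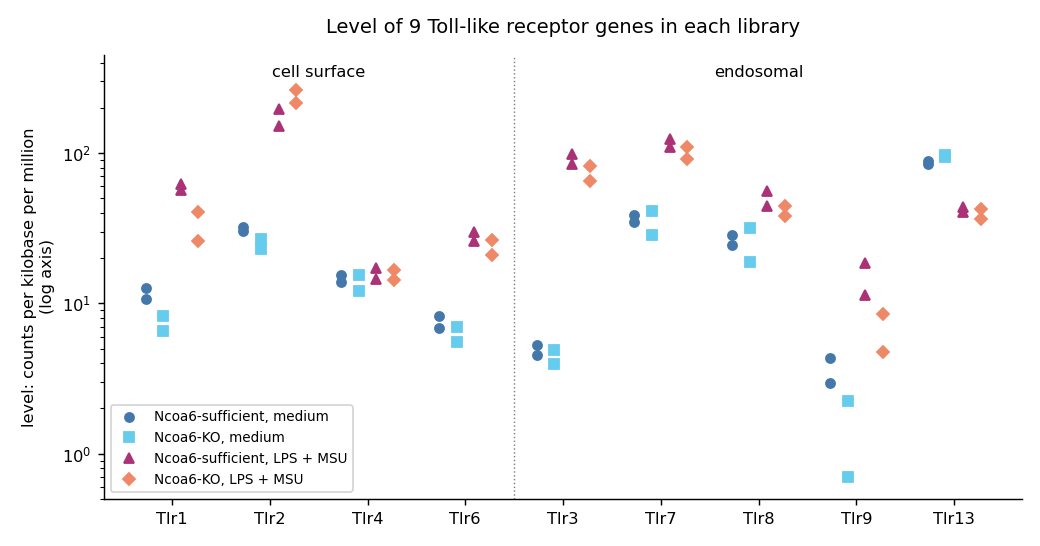
Level of 9 receptors in each of the 8 libraries, as CPM per kilobase on a log axis, with surface receptors to the left and endosomal receptors to the right of the dotted line and 1 point per library. *Tlr13* leads with medium alone (86.6 and 95.5, group means) and *Tlr2* with LPS + MSU (173 and 237), and *Tlr5* is left out because 1 of its values is 0.

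LPS + MSU raised 7 of the 10 receptors and lowered 2 in *Ncoa6*-sufficient BMDMs, with the same call for each receptor in *Ncoa6*-KO BMDMs, under TMM scaling, whereas scaling by library totals ended the call of *Tlr8* and called *Tlr4* lower in both. Among all 17625 genes tested, 55.2% were called in *Ncoa6*-sufficient BMDMs (24.7% higher, 30.5% lower) and 53.1% in *Ncoa6*-KO BMDMs (25.2% higher, 27.9% lower). The median log2 fold change of the receptors was 1.78 and 1.73, against -0.12 and -0.07 over all genes tested. Each value below is a log2 fold change from edgeR's quasi-likelihood test, with p-values adjusted over all genes tested by the Benjamini-Hochberg method and called under 0.05.

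Among the surface receptors *Tlr2* had the largest rise in both genotypes. Its normalized counts were 2697 and 2862 with medium alone against 13362 and 17266 under LPS + MSU in *Ncoa6*-sufficient BMDMs, a log2 fold change of 2.46 (SE 0.154, adjusted p = 1.26e-07, edgeR). In *Ncoa6*-KO BMDMs it went from 2379 and 2036 to 18892 and 23049, a log2 fold change of 3.25 (SE 0.159, adjusted p = 2.03e-08, edgeR). Every stimulated library lay above every library kept in medium. *Tlr1*, whose product pairs with TLR2, rose by a log2 fold change of 2.35 (SE 0.192) in *Ncoa6*-sufficient and 2.17 (SE 0.193) in *Ncoa6*-KO BMDMs. *Tlr6*, the other partner of TLR2, rose by 1.89 (SE 0.150) and 1.92 (SE 0.151), from 901 and 752 to 3281 and 2853 normalized counts in *Ncoa6*-sufficient and from 762 and 603 to 2881 and 2302 in *Ncoa6*-KO BMDMs. *Tlr1* and *Tlr6* lie 18467 bases apart on chromosome 5 and share 259 stretches of 100 bases (7.89% of those of *Tlr1* and 7.09% of those of *Tlr6*), so that some of their reads can be split between them.

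*Tlr4*, the receptor of LPS, on the forward strand of chromosome 4 from 66827584 to 66930284, was not called in either genotype. It had 2516 and 2243 normalized counts with medium alone against 2805 and 2378 under LPS + MSU in *Ncoa6*-sufficient BMDMs, and 2499 and 1973 against 2708 and 2338 in *Ncoa6*-KO BMDMs. Stimulated and unstimulated libraries overlapped in both. The log2 fold changes were 0.12 (95% interval -0.17 to 0.42, adjusted p = 0.466, edgeR) and 0.17 (-0.12 to 0.47, adjusted p = 0.303, edgeR). These values depended on the scaling. The TMM factors ran from 1.23 to 1.29 in unstimulated and from 0.766 to 0.829 in stimulated libraries. Scaled by library totals alone, a setting added after the data were seen, the median of all genes moved by -0.66 and -0.63 to -0.78 and -0.71, and *Tlr4* took values of -0.55 and -0.46 (adjusted p = 0.00179 and 0.0058, edgeR), above that median with either scaling. The other surface receptor, *Tlr5*, had few counts. It had 30 and 15 expected counts with medium alone against 2 and 0 under LPS + MSU in *Ncoa6*-sufficient libraries, and 17 and 13 against 1 and 3 in *Ncoa6*-KO libraries. From these sums it was 13.1 times (95% counting interval 3.41 to 111) and 4.31 times (1.52 to 16.8) higher with medium alone than with LPS + MSU, intervals that cover counting error only. Its call in *Ncoa6*-KO BMDMs (adjusted p = 0.0493, edgeR) was lost with DESeq2 (adjusted p = 0.147), with DESeq2's size factors (adjusted p = 0.0552, edgeR) and in 6 of the 8 fits without 1 library (adjusted p up to 0.245, edgeR).

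Among the endosomal receptors *Tlr3*, the sensor of double-stranded RNA, on the reverse strand of chromosome 8 from 45395665 to 45411080, had the largest change of all 10. It had 691 and 802 normalized counts with medium alone against 15094 and 12952 under LPS + MSU in *Ncoa6*-sufficient BMDMs, a rise of 18.8-fold (log2 fold change 4.23, SE 0.166, adjusted p = 3.94e-09, edgeR). In *Ncoa6*-KO BMDMs it had 745 and 602 against 12551 and 9995, a rise of 16.7-fold (4.06, SE 0.165, adjusted p = 5.35e-09, edgeR). All stimulated libraries were far above the unstimulated ones. The antisense gene *Gm45542*, which overlaps *Tlr3*, had between 0 and 3.98 expected counts per library.

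The endosomal receptors *Tlr7* and *Tlr8*, neighbours on the X chromosome with 40599 bases between them, rose less. *Tlr7* went from 4650 and 4174 to 14942 and 13028 normalized counts in *Ncoa6*-sufficient BMDMs (log2 fold change 1.66, SE 0.168) and from 4923 and 3423 to 13226 and 10991 in *Ncoa6*-KO BMDMs (1.54, SE 0.168). *Tlr8* rose by a log2 fold change of 0.92 (SE 0.209, adjusted p = 0.00288, edgeR) in *Ncoa6*-sufficient BMDMs, from 3003 and 2561 to 5884 and 4675. In *Ncoa6*-KO BMDMs it rose by 0.70 (SE 0.209, adjusted p = 0.0154, edgeR), from 3344 and 1973 to 4637 and 3986. No stimulated library of either gene overlapped with an unstimulated one of its genotype. With library totals the *Tlr8* values were 0.25 and 0.065 and neither was called (adjusted p = 0.271 and 0.782, edgeR), while *Tlr7* kept its calls at 0.99 and 0.90. The call in *Ncoa6*-KO BMDMs rests on single libraries. Without the second *Ncoa6*-KO library with medium alone the *Tlr8* value in *Ncoa6*-KO BMDMs was 0.37 (adjusted p = 0.0852, edgeR), and without the first with LPS + MSU 0.57 (adjusted p = 0.102, edgeR). Without the first *Ncoa6*-KO library with medium alone it was 1.13.

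*Tlr9*, the sensor of CpG DNA, rose by a log2 fold change of 2.03 (SE 0.408, adjusted p = 0.00129, edgeR) in *Ncoa6*-sufficient and 2.14 (SE 0.440, adjusted p = 0.00164, edgeR) in *Ncoa6*-KO BMDMs, where the value was 3.24 without the first unstimulated library. *Tlr13*, the sensor of bacterial ribosomal RNA, on the forward strand of the X chromosome from 106143204 to 106160493, went the other way. It had 11214 and 10642 normalized counts with medium alone against 5529 and 5079 under LPS + MSU in *Ncoa6*-sufficient BMDMs, a log2 fold change of -1.04 (SE 0.107, adjusted p = 7.48e-06, edgeR). In *Ncoa6*-KO BMDMs it fell from 11845 and 12273 to 4592 and 5329, a log2 fold change of -1.28 (SE 0.108, adjusted p = 1.55e-06, edgeR). It was the only endosomal receptor that fell, and its libraries did not overlap between conditions.

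**Figure D2:**
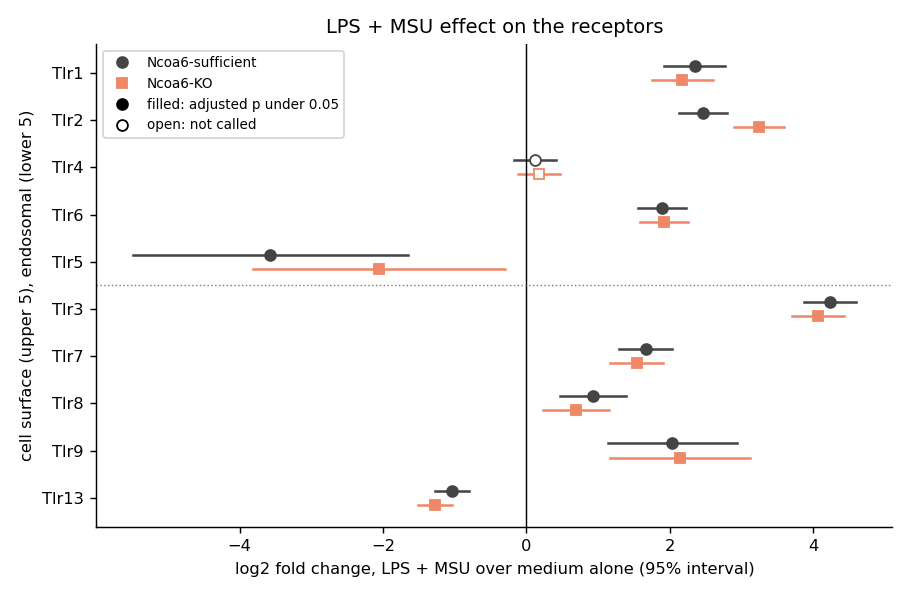
Log2 fold change of each receptor with LPS + MSU over medium alone, with its 95% interval, in *Ncoa6*-sufficient (circles) and *Ncoa6*-KO BMDMs (squares), filled where the adjusted p is under 0.05. *Tlr3* lies farthest above 0 (4.23 and 4.06), *Tlr4* stays near 0 (0.12 and 0.17, and -0.55 and -0.46 when scaled by library totals), and *Tlr13* and *Tlr5* lie below 0 in both genotypes.

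*Ncoa6* knockout was followed by calls for none of the 10 receptors with medium alone and for 1, *Tlr1*, with LPS + MSU. The background was 1.88% of all genes tested with medium alone (331 genes) and 3.59% with LPS + MSU (632 genes). DESeq2 called 1 receptor with medium alone and 1 with LPS + MSU. At an unadjusted p under 0.05 the receptors passing numbered 3 with medium alone (*Tlr1*, *Tlr2* and *Tlr9*), against 12.8% of all genes tested, and 3 with LPS + MSU (the same 3 names), against 17.4%. The values lay below 0 for 9 and 8 of the 10 receptors, and their medians were -0.21 and -0.23, against -0.03 and 0.00039 over all genes tested. The knockout comparisons contrast different libraries, but both use a spread estimated from all 8, so they are not independent. Whether the same mice gave cells to both conditions is not stated. Each knockout comparison also shares libraries with the comparisons of LPS + MSU with medium alone.

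*Tlr1* was the only receptor that fell with the knockout at the adjusted limit. The gene is ENSMUSG00000044827, on chromosome 5 of GRCm38 from 64924679 to 64933563, reverse strand. Stimulated, it had 6142 and 5570 normalized counts in *Ncoa6*-sufficient and 3974 and 2546 in *Ncoa6*-KO BMDMs. All of the *Ncoa6*-KO libraries were below the *Ncoa6*-sufficient ones, 1.80-fold by the fitted change, and the 2 *Ncoa6*-KO libraries differed more from each other than the *Ncoa6*-sufficient ones did. The log2 fold change was -0.84 (SE 0.184, adjusted p = 0.0334, edgeR). With medium alone it had 1248 and 1051 against 802 and 642 normalized counts, again without overlap. The log2 fold change there was -0.67 (SE 0.189), which was not called (adjusted p = 0.119, edgeR). Both values rest on few libraries. With LPS + MSU the call was lost in the fit of only the 4 libraries compared (adjusted p = 0.111, edgeR) and in 5 of the 8 fits without 1 library. Those were the fits without either unstimulated *Ncoa6*-sufficient library (adjusted p = 0.0553 and 0.0554, edgeR), without either stimulated one (adjusted p = 0.212 and 0.0677, edgeR) and without the second stimulated *Ncoa6*-KO library (log2 fold change -0.56, adjusted p = 0.199, edgeR). With medium alone the call was gained with DESeq2 (adjusted p = 0.0207), with only the 4 libraries compared (adjusted p = 0.0423, edgeR) and without the filter on low counts.

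*Tlr2* had values on opposite sides of 0 under the 2 conditions. Located on the reverse strand of chromosome 3 from 83836272 to 83841767, it had 2697 and 2862 normalized counts in unstimulated *Ncoa6*-sufficient and 2379 and 2036 in unstimulated *Ncoa6*-KO BMDMs, a log2 fold change of -0.33 (SE 0.147, adjusted p = 0.373, edgeR). With LPS + MSU it had 13362 and 17266 against 18892 and 23049, a log2 fold change of 0.45 (SE 0.145, adjusted p = 0.127, edgeR). The *Ncoa6*-KO libraries were both lower with medium alone and both higher with LPS + MSU. The difference of the knockout effects was 0.79 (95% interval 0.33 to 1.24), with an unadjusted p of 0.00307 and an adjusted p of 0.525 from edgeR. The other surface receptors had values near 0 or wide intervals. *Tlr6* stood at -0.27 (95% interval -0.60 to 0.056) with medium alone and -0.24 (-0.56 to 0.076) with LPS + MSU, and *Tlr4* at -0.09 (-0.38 to 0.20) and -0.04 (-0.34 to 0.26). *Tlr5* stood at -0.61 (-1.81 to 0.59) with medium alone, where its counts were 30 and 15 against 17 and 13, and with LPS + MSU it had at most 3 counts in any library.

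*Tlr9* had the lowest estimates of all receptors and was not called. The gene, ENSMUSG00000045322, lies on the forward strand of chromosome 9 from 106222598 to 106226883. It had 440 and 300.2 normalized counts in unstimulated *Ncoa6*-sufficient BMDMs, against 228 and 71.1 in unstimulated *Ncoa6*-KO BMDMs. After stimulation it had 1881 and 1155 against 864 and 484. Neither condition showed an overlap of the genotypes, and within each group the library numbered 2 was the lower one, by 0.55, 1.67, 0.70 and 0.83 on the log2 scale. The log2 fold changes were -1.28 (SE 0.438, 95% interval -2.24 to -0.31, adjusted p = 0.210, edgeR) and -1.17 (SE 0.400, -2.05 to -0.29, adjusted p = 0.153, edgeR). Without the first *Ncoa6*-KO library with medium alone the value there was -2.38 (adjusted p = 0.0233, edgeR), and without the second it was -0.70.

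The summed markers of B cells, which also use TLR9, were lower in *Ncoa6*-KO libraries, but single markers differed. The 7 markers summed to 182 and 189 normalized counts in *Ncoa6*-sufficient and 110 and 159 in *Ncoa6*-KO libraries with medium alone, and to 103 and 144 against 78.3 and 94.1 with LPS + MSU. Most of the sum came from *Cd22*, with 70.0 to 149 normalized counts. *Cd22* was lower in *Ncoa6*-KO libraries without overlap with medium alone. With LPS + MSU it overlapped, at 70.7 and 115 in *Ncoa6*-sufficient against 81.0 and 70.0 in *Ncoa6*-KO libraries. Of the defining markers *Blk* was at 0 in every library, *Ms4a1* had at most 2 expected counts, *Pax5* at most 5 and *Cd79a* at most 8. With medium alone *Cd79a* was higher in *Ncoa6*-KO libraries, at 4.87 and 7.02 normalized counts against 0.75 and 3.44 in *Ncoa6*-sufficient ones. *Cd79b*, which encodes the other signalling chain of the B cell receptor, had 49.5 and 29.2 normalized counts in *Ncoa6*-sufficient against 33.4 and 18.4 in *Ncoa6*-KO libraries with medium alone, which overlapped, and 20.8 and 19.3 against 10.5 and 2.80 under LPS + MSU, which did not. Their part in the *Tlr9* values was not tested beyond these levels. Of the markers of plasmacytoid dendritic cells, which use TLR7 and TLR9, *Siglech* had at most 1 expected count in any library. The sum of those 7 markers, 1121 to 1456 normalized counts with medium alone and 5417 to 6613 with LPS + MSU, came mostly from *Tcf4*.

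The other endosomal receptors gave smaller values. *Tlr3* stood at -0.15 (95% interval -0.48 to 0.19) with medium alone and -0.31 (-0.63 to 0.0034) with LPS + MSU, where neither *Ncoa6*-KO library overlapped with the *Ncoa6*-sufficient ones. *Tlr7* stood at -0.08 (-0.44 to 0.28) and -0.21 (-0.57 to 0.15), and *Tlr8* at -0.06 (-0.52 to 0.39) and -0.29 (-0.75 to 0.17). *Tlr13* was the only receptor with a value above 0 with medium alone, at 0.14 (-0.091 to 0.37), where its *Ncoa6*-KO libraries lay above the *Ncoa6*-sufficient ones. Under LPS + MSU it stood at -0.10 (-0.33 to 0.14). None of these receptors was called. The genotypes stood apart for 5 of the 10 receptors with medium alone, against 43.1% of all genes tested. *Tlr1*, *Tlr2*, *Tlr5* and *Tlr9* were lower, as were 24.5% of all genes tested, and *Tlr13* was higher, as were 18.6%. Under LPS + MSU they stood apart for 5, against 47.5%. *Tlr1*, *Tlr3*, *Tlr8* and *Tlr9* were lower, as were 22.8%, and *Tlr2* was higher, as were 24.6%.

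**Figure D3:**
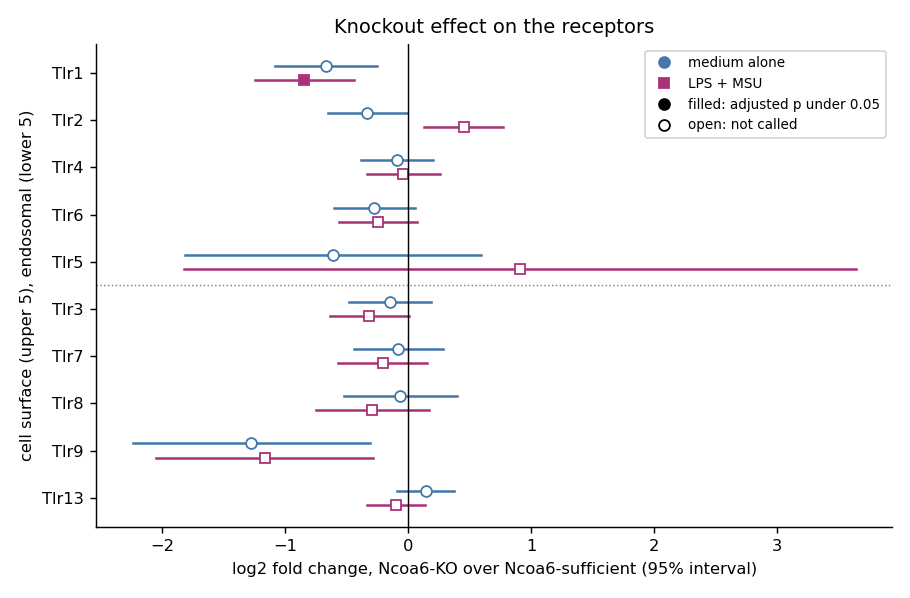
Log2 fold change of each receptor in *Ncoa6*-KO over *Ncoa6*-sufficient BMDMs, with its 95% interval, with medium alone (circles) and LPS + MSU (squares), filled where the adjusted p is under 0.05. *Tlr1* with LPS + MSU (-0.84) is the only filled point, *Tlr9* lies lowest with wide intervals (-1.28 and -1.17), and *Tlr2* changes side (-0.33 and 0.45).

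**Figure D4:**
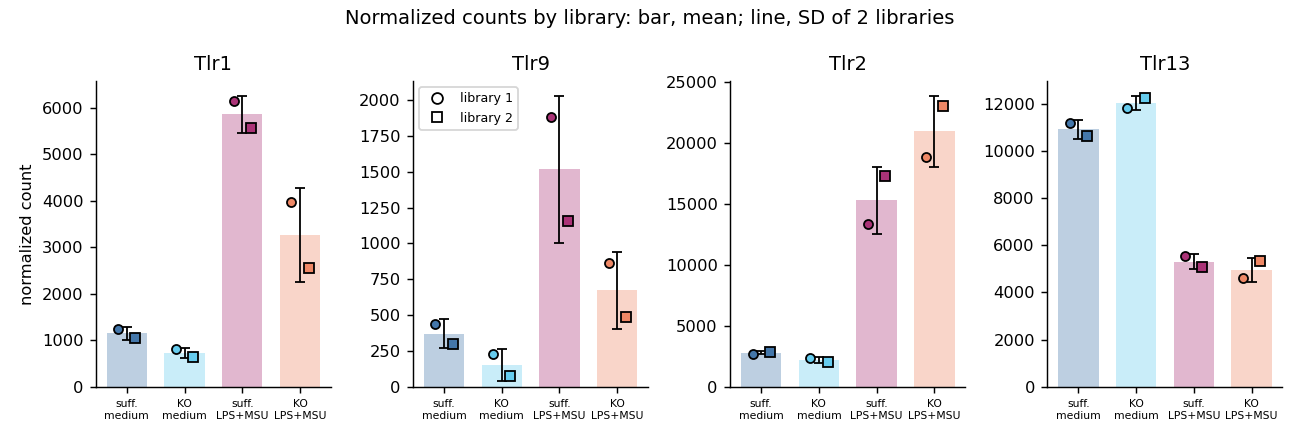
Normalized counts of *Tlr1*, *Tlr9*, *Tlr2* and *Tlr13* in each library, with bars for the mean of 2 libraries and lines for the SD. *Tlr1* and *Tlr9* lie lower in *Ncoa6*-KO libraries under both conditions, *Tlr2* lies lower in them with medium alone and higher with LPS + MSU, and *Tlr13* falls with LPS + MSU, from group means of 10928 and 12059 to 5304 and 4961.

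The knockout effect was compared between conditions for each receptor by the interaction term, and 0 of 10 were called, as were 0 of all 17625 genes tested with edgeR (0%), while DESeq2 called 43 of all genes. At an unadjusted p under 0.05, 1 receptor (*Tlr2*) passed, against 5.93% of all genes tested, and DESeq2 called 0 of the receptors. The differences of the other receptors ran from -0.24 for *Tlr13* (95% interval -0.57 to 0.092) to 0.11 for *Tlr9* (-1.19 to 1.41), leaving out *Tlr5*, which had a difference of 1.52 (-1.49 to 4.54).

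Surface and endosomal receptors were compared as classes by the medians of their members, as a description with no test. The median log2 fold change with medium alone was -0.33 over the 5 surface receptors and -0.08 over the 5 endosomal ones, and with LPS + MSU it was -0.04 and -0.29. The medians thus changed order between conditions. With LPS + MSU over medium alone the medians were 1.89 and 1.66 in *Ncoa6*-sufficient and 1.92 and 1.54 in *Ncoa6*-KO BMDMs, and each class held 1 receptor that fell. The summed level of the endosomal receptors was 70.7% ± 0.51 (SD, n = 2) of the level of all 10 in *Ncoa6*-sufficient BMDMs and 75.5% ± 0.55 in *Ncoa6*-KO BMDMs when unstimulated. With LPS + MSU it was 53.2% ± 4.93 and 45.8% ± 4.06 (libraries at 56.7% and 49.7% against 48.7% and 42.9%). The genotypes did not overlap under either condition, but the nearest libraries with LPS + MSU lay closer to each other than the libraries of 1 group. Without *Tlr13* the unstimulated libraries overlapped, at 53.2% and 51.4% in *Ncoa6*-sufficient against 58.2% and 52.4% in *Ncoa6*-KO BMDMs. The stimulated ones did not, at 53.3% and 46.0% against 45.2% and 38.3%. Most of the stimulated surface sum was *Tlr2*, however. It held 173 of 277 in *Ncoa6*-sufficient and 237 of 310 in *Ncoa6*-KO BMDMs (group means of the level). The stimulated shares therefore do not describe the surface class without *Tlr2*, and shares without it were not computed.

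Genes that serve the receptors were followed from a list of 54 pathway genes, of which 53 were tested (*Lbp*, with at most 2 counts per library, was not). With medium alone 1 rose and 3 fell in *Ncoa6*-KO BMDMs, against 0.573% and 1.3% of all genes tested, and with LPS + MSU 1 rose and 1 fell, against 1.96% and 1.63%. The median log2 fold change of the 53 was -0.07 and -0.09. With LPS + MSU over medium alone 29 rose and 12 fell in *Ncoa6*-sufficient and 28 rose and 11 fell in *Ncoa6*-KO BMDMs, with medians of 0.43 in both. Of all genes tested, 24.7% rose and 30.5% fell in *Ncoa6*-sufficient and 25.2% and 27.9% in *Ncoa6*-KO BMDMs. Scaled by library totals the pathway counts were 18 and 25 in *Ncoa6*-sufficient and 18 and 24 in *Ncoa6*-KO BMDMs. Of all 17625 genes, 2498 then rose and 9653 fell in *Ncoa6*-sufficient, and 2540 and 9313 in *Ncoa6*-KO BMDMs. The knockout counts depended on the setting. Of the genes tested, those lower in unstimulated *Ncoa6*-KO BMDMs numbered 4 with DESeq2 and 7 without the filter on low counts, in place of 3. In stimulated cells they numbered 6 with DESeq2, 7 without the filter and 0 with only the 4 libraries compared, in place of 1. Fits without 1 library called 0 to 4 of the pathway genes in unstimulated and 0 to 3 in stimulated cells. None was called in unstimulated cells without either unstimulated *Ncoa6*-sufficient library, nor in stimulated cells without the first stimulated *Ncoa6*-sufficient or the second stimulated *Ncoa6*-KO library. Of the 8 such fits *Cd14* was called in 2, *Ly86* in 3, *Slc15a3* in 5 and *Ctsk* in 5 in unstimulated cells, and *Slc15a3* in 2 and *Ctsk* in 6 in stimulated cells.

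Among the co-receptors, *Cd14*, whose product hands LPS to TLR4, had 8612 and 7115 normalized counts in unstimulated *Ncoa6*-sufficient BMDMs, against 5228 and 3937 in unstimulated *Ncoa6*-KO BMDMs. It fell by 0.78 on the log2 scale (SE 0.150, adjusted p = 0.0298, edgeR), without overlap between the genotypes. With LPS + MSU its counts of 47294 and 46004 against 47215 and 42836 overlapped (log2 fold change -0.05, adjusted p = 0.905, edgeR). *Ly86*, which encodes MD-1, the partner of the TLR4-like protein CD180, had 1927 and 1344 against 822 and 502 normalized counts with medium alone, without overlap, and fell by 1.30 on the log2 scale (SE 0.281, adjusted p = 0.0456, edgeR). With LPS + MSU its value was -0.97 (adjusted p = 0.0849, edgeR). *Ly96*, which encodes MD-2, stood at -0.13 (adjusted p = 0.899, edgeR) and -0.25 (adjusted p = 0.643, edgeR).

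Among the genes of folding and trafficking, *Slc15a3*, which encodes a histidine and peptide transporter of endolysosomes, fell under both conditions. It had 8143 and 7242 against 4897 and 4633 normalized counts with medium alone (log2 fold change -0.69, SE 0.120, adjusted p = 0.0209, edgeR). With LPS + MSU it had 75102 and 71620 against 54619 and 47886 (log2 fold change -0.52, SE 0.119, adjusted p = 0.0399, edgeR). Its libraries did not overlap between genotypes. *Unc93b1*, the escort of the endosomal receptors, stood at -0.41 (adjusted p = 0.304, edgeR) and -0.29 (adjusted p = 0.398, edgeR), and *Cnpy3*, a folding partner of several receptors, at -0.49 (adjusted p = 0.0956, edgeR) and -0.38 (adjusted p = 0.172, edgeR). The protease gene *Ctsk*, which encodes cathepsin K, was the pathway gene that rose, from 221 and 234 to 384 and 343 normalized counts with medium alone (log2 fold change 0.68, SE 0.119, adjusted p = 0.0213, edgeR) and from 237 and 242 to 435 and 402 with LPS + MSU (0.80, SE 0.125, adjusted p = 0.00901, edgeR).

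None of the 6 adaptors, 20 kinases and ubiquitin ligases or 10 inhibitors was called in either knockout comparison. Of all genes tested, 1.88% were called with medium alone and 3.59% with LPS + MSU, so few calls would stand out from none in lists of this size. The adaptor *Myd88* had 1515 and 1257 against 984 and 915 normalized counts with medium alone (log2 fold change -0.55, SE 0.125, adjusted p = 0.0558, edgeR) and 9393 and 7690 against 6504 and 6486 with LPS + MSU (-0.40, SE 0.121, adjusted p = 0.112, edgeR). Its genotypes did not overlap under either condition. *Tirap*, which bridges TLR2 and TLR4 to MyD88, stood at -0.30 and -0.39, *Ticam1*, which encodes TRIF, at -0.08 and -0.33, and *Ticam2*, which encodes TRAM and links TLR4 to TRIF, at -0.24 and -0.45 (adjusted p from 0.0979 to 0.913, edgeR). With LPS + MSU 5 of the 6 adaptors, all but *Sarm1*, had libraries that were lower in *Ncoa6*-KO BMDMs without overlap, beside the 22.8% of all genes given above.

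**Figure D5:**
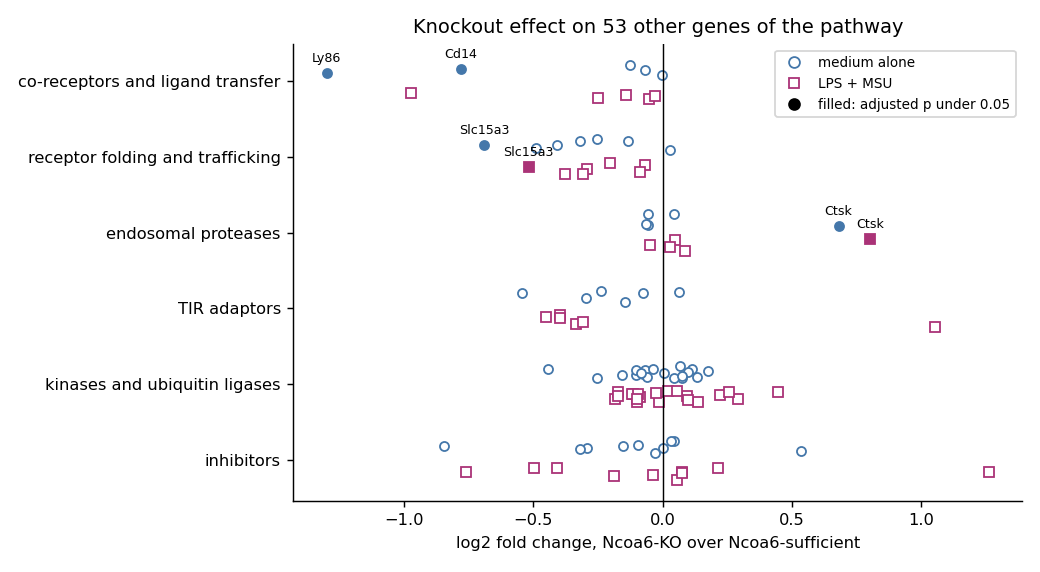
Log2 fold change in *Ncoa6*-KO over *Ncoa6*-sufficient BMDMs of 53 pathway genes by role, with medium alone (circles) and LPS + MSU (squares), filled and named where the adjusted p is under 0.05. *Slc15a3* and *Ctsk* are filled under both conditions, and *Cd14* and *Ly86* with medium alone.

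LPS + MSU moved genes of each role in *Ncoa6*-sufficient BMDMs, and the 2 largest rises and falls of each role are given. Of the co-receptors *Cd14* rose by a log2 fold change of 2.57 and *Ly86* by 1.65, and none was called lower. *Cd36* took a value of -0.13, and of -0.80 (adjusted p = 2.98e-05, edgeR) with library totals. *Slc15a3* rose by 3.25 and *Ap3b1*, a subunit of the AP-3 sorting complex, by 1.08, while the folding partners *Cnpy4* and *Cnpy3* fell by 1.05 and 0.57. The protease gene *Ctss* was the 1 of 5 that rose, by 0.50, and took a value of -0.17 with library totals. Of the adaptors *Myd88* rose by 2.62 and *Pik3ap1*, which links receptors to PI3K, by 1.87, while *Sarm1*, with at most 22.4 normalized counts in any library, fell by 1.97. The ubiquitin ligase gene *Peli1* rose by 3.96 and the kinase gene *Irak2* by 3.54, whereas *Peli2* and *Peli3* fell by 3.87 and 2.08. The inhibitors *Socs1* and *Tnfaip3*, which encodes A20, rose by 5.43 and 4.76, and *Il1rl1* and *Sigirr*, whose products are receptors that restrain the pathway, fell by 2.36 and 2.07. Counts were low for *Peli2*, *Peli3*, *Il1rl1* and *Sigirr*, with at most 35.8 normalized counts in any stimulated library. The largest adjusted p among the called rises and falls above was 0.0326 (edgeR), for *Sarm1*. Of the genes followed in every comparison, *Ly96* rose by 1.07, *Unc93b1* by 1.01, *Ticam1* by 1.60, *Ticam2* by 0.46 and *Tirap* by 0.41, of which *Ticam2* and *Tirap* took values of -0.22 and -0.26 with library totals. All other genes named here kept their direction with library totals, but *Ly96* (0.40, adjusted p = 0.131, edgeR) and *Unc93b1* (0.34, adjusted p = 0.0602, edgeR) were no longer called.

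The genes whose course over the 8 libraries was most like that of each receptor were found by the distance between their centred log2 values among the 11208 other genes whose mean normalized count was 50 or more. Smaller distances mean more alike courses. For *Tlr4* they were *Yipf3*, *Mboat7* and *Capn1*, at 0.107, 0.109 and 0.132, and for *Tlr6* they were *Sppl2a*, *Tifa* and *Eng*, at 0.128, 0.176 and 0.246. *Tlr13* had *Samd10*, *Tgfbrap1* and *Exoc8* between 0.178 and 0.215, *Tlr7* had *Tox4*, *H2-M3* and *Vcpip1* between 0.244 and 0.260, and *Tlr8* had *P2rx4* and *Kat6a* at 0.279 and 0.344. *Tlr3* had *Sp140*, *Flt4* and *Hopx* between 0.275 and 0.371, and *Tlr1* had *Sertad3*, *Ms4a6d* and *Zyx* between 0.364 and 0.389. The genes nearest to *Tlr2* (*Zc3h12c*, *Exoc3l4* and *Gm44154*, from 0.513 to 0.541) and to *Tlr9* (*Clec4a1*, *Ms4a6b* and *Treml2*, from 0.606 to 0.913) lay farther off. Distances grow with the size of a gene's spread over libraries, and all points share the same 8 libraries.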

How the data were processed

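RNA of mouse BMDMs was made into TruSeq Stranded mRNA libraries and sequenced as paired reads. Per the labels and methods, the authors aligned reads with STAR 2.7.3a to GRCm38 and deposited expected counts per Ensembl gene from RSEM 1.3.3; the strand setting of the counting is not given in the sources used here. Rows map to symbols through GENCODE annotation of GRCm38, and reads shared by similar genes are split by estimate. Expected counts were rounded. Genes with at least 10 counts summed over the 8 libraries were kept (17625 genes) and scaled by TMM, and all 4 groups were fitted together with 4 residual degrees of freedom by edgeR 4.0.16's quasi-likelihood test in R 4.3.3, with Benjamini-Hochberg adjustment over all genes tested. Library totals ran from 25281955 to 33673552. The tests were checked on simulated data.

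Normalized counts are scaled to a mean effective library of 29332189 counts, and levels are CPM per kilobase of merged exons. P-values measure the spread between these libraries; an exact permutation test of 2 libraries against 2 cannot go below 0.333. The receptors, gene lists, markers and motifs were chosen with earlier results of these data known. Named genes are the receptors, *Ncoa6*, the pathway genes *Cd14*, *Ly96*, *Unc93b1*, *Cnpy3*, *Myd88*, *Tirap*, *Ticam1* and *Ticam2*, pathway genes called in a knockout comparison, the 2 largest called rises and falls of each role under LPS + MSU, and the 3 genes nearest to each receptor. Some genes that these rules and lists name are not reported here. Alternatives were DESeq2 1.42.0, its size factors, other filters, only the 4 libraries compared, library number as a term, each library left out and, added after the data were seen, library totals. Promoter sequences are from RefSeq on GRCm38.p6.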

Additional observations from a re-analysis of the deposited data

Results flagged for a closer look

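The knockout effect on *Tlr2* differed in sign between the conditions, with both *Ncoa6*-KO libraries below the *Ncoa6*-sufficient ones with medium alone and both above them with LPS + MSU. The difference of the log2 fold changes was 0.79 (SE 0.207), with an unadjusted p of 0.00307 and an adjusted p of 0.525 in edgeR's interaction test. Without 1 library it lay between 0.56 and 0.93.

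The same arrangement was seen for 1 pathway gene, *Ikbkb*, which encodes the kinase IKKβ. Unstimulated, it had 2163 and 2286 normalized counts in *Ncoa6*-sufficient against 2105 and 2142 in *Ncoa6*-KO BMDMs, and 4101 and 4363 against 4382 and 4420 with LPS + MSU. The difference was 0.12 (unadjusted p = 0.333, adjusted p = 0.938, edgeR), which the test does not tell apart from 0.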

How the results depend on the processing

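With 2 libraries a group, single libraries set most knockout calls, and leaving 1 out assumes that the lone library of its group varies like the others. With medium alone the count of receptors called was 0, and it was 1 with DESeq2 and with only the 4 libraries compared, 2 without the filter on low counts and 0 to 1 without 1 library. With LPS + MSU it was 1, against 3 without the filter, 0 with only the 4 libraries and 0 to 2 without 1 library. The difference of the knockout effects was called for 0 receptors, or 1 without the filter. LPS + MSU moved 9 receptors in *Ncoa6*-sufficient BMDMs under every alternative, and 7 to 10 in *Ncoa6*-KO BMDMs. The cause of these shifts was not tested.

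The endosomal minus surface median of the knockout effect was 0.25 with medium alone (0.089 to 0.34 without 1 library) and -0.25 with LPS + MSU (-0.15 without *Tlr5*, the receptor under a mean of 50, and -0.27 to -0.11 without 1 library). For LPS + MSU over medium alone it was -0.23 and -0.39 in the 2 genotypes, -0.46 and -0.51 without *Tlr5*, and -0.28 to -0.18 and -0.47 to -0.28 without 1 library.

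Library totals turned *Tlr4* to 0.034 in the knockout comparison with LPS + MSU, and to -0.55 and -0.46 for LPS + MSU over medium alone. The difference of the knockout effects turned to -0.0044 for *Tlr4* and -0.023 for *Tlr6* with DESeq2, and to -0.0045 and -0.024 with its size factors. Leaving out 1 library turned the sign of the knockout effect with medium alone for *Tlr4* (range -0.27 to 0.070), *Tlr7* (-0.37 to 0.16) and *Tlr8* (-0.50 to 0.27), and with LPS + MSU for *Tlr4* (-0.16 to 0.077) and *Tlr5* (-0.077 to 4.57). It also turned the sign of the difference for *Tlr1* (-0.58 to 0.069), *Tlr4* (-0.11 to 0.23), *Tlr6* (-0.19 to 0.21), *Tlr7* (-0.37 to 0.16), *Tlr8* (-0.56 to 0.20) and *Tlr9* (-0.47 to 1.21). *Tlr9* was called with LPS + MSU when the first or the second *Ncoa6*-KO library with medium alone was left out (adjusted p = 0.0441 and 0.0440, edgeR).

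Counts over all genes moved as well. The 331 genes with medium alone became 1152 without the filter and 22 to 372 without 1 library. The 632 with LPS + MSU became 1611 without the filter, 139 with only the 4 libraries and 58 to 761 without 1 library. The 0 genes of the difference became 43 with DESeq2, 269 without the filter and 0 to 23 without 1 library. Of genes called, 68.8% were higher in the knockout with LPS + MSU under library totals, against 54.6% under TMM, and 20.6% and 21.4% rose with LPS + MSU in the 2 genotypes, against 44.8% and 47.5%.

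Libraries of different groups that share a number were compared by their deviations over 11220 genes, with correlations between 0.035 and 0.33. The highest were 0.33 between the 2 conditions of *Ncoa6*-KO BMDMs and 0.26 between those of *Ncoa6*-sufficient BMDMs. Each group has only 2 numbers, and whether they pair the libraries was not tested further. With library number as a replicate block across all groups, the receptors called were 2 with medium alone (*Tlr1*, adjusted p = 0.00165, and *Tlr9*, adjusted p = 3.49e-04, edgeR) and 3 with LPS + MSU (*Tlr1*, *Tlr2*, adjusted p = 0.0244, and *Tlr9*, adjusted p = 3.45e-04, edgeR). The genes called were then 1023, 1532 and, for the difference, 86. Of the pathway genes 7 were then lower and 1 higher with medium alone, and 8 lower and 2 higher with LPS + MSU. With the block within each genotype the difference was called for 1 receptor, *Tlr2* (adjusted p = 4.04e-04, edgeR), and for 444 genes, and *Tlr4* was called higher with LPS + MSU in *Ncoa6*-KO BMDMs (log2 fold change 0.18, adjusted p = 0.0440, edgeR). The block ended no call of a receptor.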

Other observations

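The mouse genes *Tlr11* and *Tlr12*, whose products sense profilin and other microbial ligands in endosomes, were not among the 10 receptors. *Tlr11* had 4 and 1 expected counts in *Ncoa6*-sufficient and 2 and 1 in *Ncoa6*-KO libraries with medium alone, and 26 and 35 against 56 and 30 with LPS + MSU. From summed counts it was 21.0 times (95% counting interval 8.53 to 67.0) higher with LPS + MSU in *Ncoa6*-sufficient and 49.9 times (16.5 to 247) higher in *Ncoa6*-KO BMDMs, intervals that cover counting error only. *Tlr12* had at most 3 counts in any library and was not tested.

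Of the 10 receptors, 6 (*Tlr1*, *Tlr4*, *Tlr6*, *Tlr7*, *Tlr8* and *Tlr9*) had lower normalized counts in the library numbered 2 than in the library numbered 1 in all 4 groups. How many of all genes tested did so was not counted, so the arrangement is not shown to be particular to the receptors.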
